A study of Caenorhabditis elegans with 12 samples.

Results

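The genes described here are the neuropeptide genes of *Caenorhabditis elegans* whose symbol in the deposited count table starts with *flp-* or *nlp-*, with *nlp-24* to *nlp-34* left out because that stretch of the *nlp* numbering encodes antimicrobial-type peptides. The rule gave 95 genes, 31 *flp* and 64 *nlp*, of the 46934 genes in the table, and all 95 are protein coding in the annotation. RNA was sequenced from whole nematodes at day 1 of adulthood in 4 groups of 3 biological replicates. The *hsf-1*(*sy441*) mutant, called sy441 here, was strain TTV450, which was outcrossed 6 times to the wild type, and the wild type was N2. The *sy441* allele reduces HSF-1 function, and its predicted product lacks the transactivation domain of this heat shock transcription factor. The heat-shocked groups, sy441 HS and N2 HS, received 30 min of heat at 35 °C followed by 1 h of recovery at 20 °C, and the untreated groups, sy441 control and N2 control, stayed at 20 °C. All animals were fed *Escherichia coli* OP50, and the mutants are egg-laying defective, so adults of the genotypes can differ in the eggs they hold.

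Neuropeptides are short signalling peptides that neurons, and in nematodes also the intestine and other tissues, cut from larger precursor proteins and release from dense-core vesicles. The *flp* genes encode precursors of FMRFamide-like peptides, and the *nlp* genes encode the other neuropeptide-like precursors. Most of the peptides act on G protein-coupled receptors, and they tune egg laying, locomotion, feeding, arousal and sleep, the sleep of the animal after cellular stress among them.

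The libraries held 68188334 to 109248499 counts, with a median of 79763950. Levels are given in CPM, read counts scaled to the size of the library with factors from the trimmed mean of M-values (TMM). The heat-inducible chaperone gene *hsp-16.2* was at 95.9 to 196 CPM in sy441 HS, at 506 to 943 CPM in N2 HS, at 0.904 to 2.41 CPM in sy441 control and at 4.54 to 8.23 CPM in N2 control, so the treatment was visible in every heat-shocked library. The allele leaves the *hsf-1* transcript in place, and its level (67.6 to 154 CPM over all libraries) does not check the genotype. Of the 95 genes, 92 (30 *flp* and 62 *nlp*) passed the filter on low counts that left 17946 genes for testing. The 3 that did not were *nlp-22*, which acts in larval sleep and had counts in 2 libraries (6 in sy441 HS 2 and 2 in N2 control 3), *nlp-23* with counts in 3 libraries (5 in sy441 HS 3, 5 in sy441 control 3 and 8 in N2 control 3), and *flp-23* with counts in 3 libraries (17 in sy441 HS 1, 4 in sy441 HS 3 and 4 in N2 HS 3).

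The neuropeptide genes were read at low to moderate levels in whole animals. In N2 control, 17 of the 95 averaged under 1 CPM, 59 averaged 1 to 10 CPM, 17 averaged 10 to 100 CPM and 2 averaged over 100 CPM. Those 2 were *nlp-77* and *nlp-40*. Divided by the length of the exons (median 599 bp, shortest 240 bp for *nlp-39*, longest 1732 bp for *nlp-6*), the level had a median of 6.8 CPM per kb and quartiles of 3.63 and 13.5 CPM per kb. The highest levels per length in N2 control were 267 ± 28.2 CPM per kb for *nlp-77*, 208 ± 48.6 CPM per kb for *nlp-36* and 169 ± 8.85 CPM per kb for *nlp-40* (SD, n = 3). The next, *nlp-20* with 56.7 ± 35.7 CPM per kb, *nlp-49* with 46.3 ± 31.5 CPM per kb and *flp-24* with 43.5 ± 15.2 CPM per kb, did not differ from each other beyond their spread. Together *nlp-77* and *nlp-40* took between 23.4% (N2 control 3) and 46.4% (sy441 control 1) of all counts of the 95 genes. For that reason the sums over the *nlp* genes are also given without them.

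**Figure D1:**
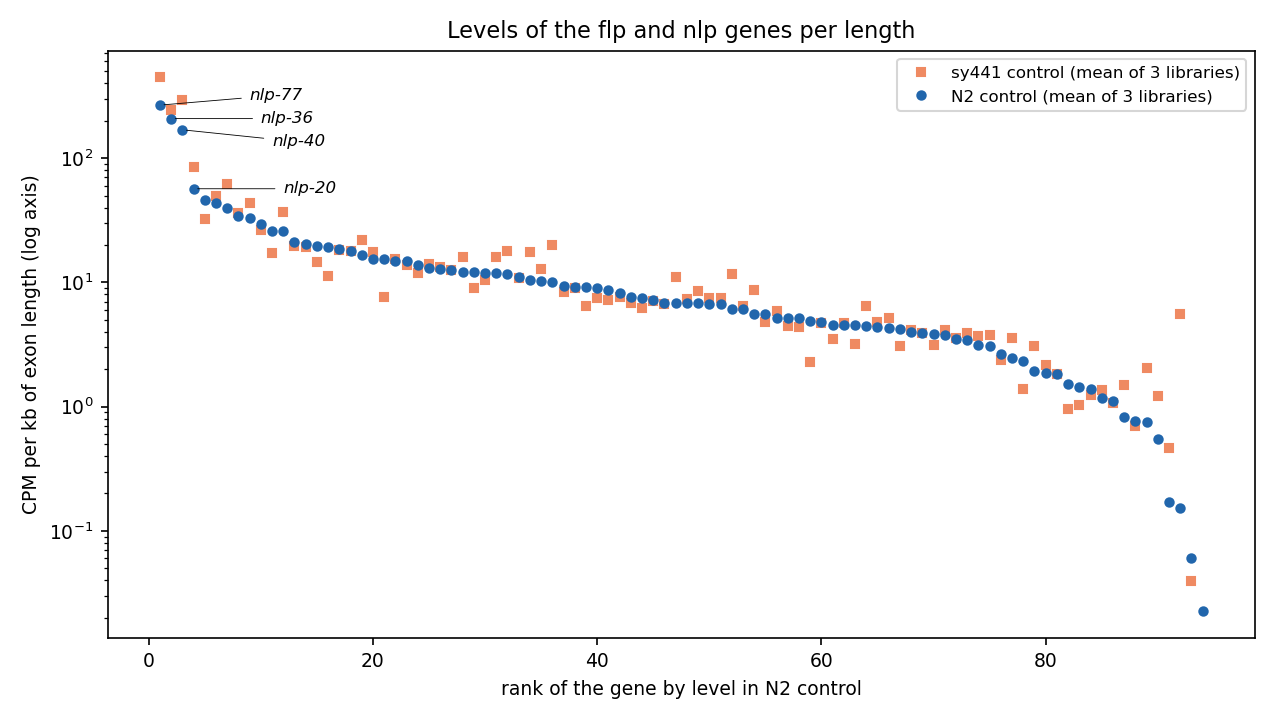
Mean level of each gene in CPM per kb of exon length (log axis) in sy441 control (squares) and N2 control (circles), against its rank in N2 control; genes at 0 in a group are not drawn for it. *nlp-77*, *nlp-36* and *nlp-40* stand above 100 CPM per kb in N2 control, and the rest lie below 60.

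The genes are spread over all chromosomes, with 31 of the 95 (32.6%) on the X chromosome, 13 *flp* and 18 *nlp*. The X carries 14.2% of all genes tested. The autosomes hold 10 (I), 14 (II), 12 (III), 15 (IV) and 13 (V) of them. Of all 2556 X-linked genes tested, the median log2 fold change of sy441 over N2 at 20 °C was 0.36, and that of the 29 X-linked neuropeptide genes tested was -0.02. On the autosomes both medians were 0.09. These medians used all 12 libraries. Without N2 control 3 the median of the 92 neuropeptide genes tested rose from 0.04 to 0.44, and the medians by chromosome were not computed without it. The exons of 17 of the 95 overlap an exon of another gene, 13 of them an exon of a protein-coding gene by up to 88 bp. Of the genes named below, *flp-11*, *nlp-21*, *nlp-36*, *nlp-56* and *nlp-79* are among those 13, each overlapping a gene on the opposite strand. Whether the counting used strand is not given in the sources used here, so how reads in those stretches were counted is not known.

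Before any comparison, single libraries set the level of the whole group of genes. In N2 control 3, 81 of the 92 genes had the highest CPM of the 3 N2 control libraries, against 48.6% of all tested genes. Over the mean of N2 control 1 and 2, the median gene was 1.91-fold in N2 control 3 (all tested genes 1.1-fold), with 67 genes over 1.5-fold, 36 over 2-fold and 8 under 1. The range ran from 0.629-fold for *nlp-2* to 9.45-fold for *nlp-48*. In the heat-shocked mutants, sy441 HS 1 was the highest of its group for 76 of the 92 genes (38.5% of all tested genes) and sy441 HS 2 the lowest for 79 (39.3% of all tested genes). In the heat-shocked wild type, N2 HS 1 was the highest for 56 of the 92 genes (42.2% of all tested genes).

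The sums of the *flp* genes, and of the *nlp* genes without *nlp-77* and *nlp-40*, followed these libraries. The 30 *flp* genes summed to 328, 184 and 261 CPM in sy441 HS 1, 2 and 3, to 314, 264 and 286 CPM in sy441 control, to 307, 216 and 211 CPM in N2 HS and to 191, 212 and 392 CPM in N2 control. The *nlp* genes without *nlp-77* and *nlp-40* summed to 415, 236 and 309 CPM in sy441 HS, to 418, 369 and 401 CPM in sy441 control, to 373, 291 and 258 CPM in N2 HS and to 269, 287 and 512 CPM in N2 control. In both of these sums N2 control 3 was the highest of all 12 libraries and sy441 HS 2 the lowest. With *nlp-77* and *nlp-40* included, the *nlp* sums were 915, 568 and 739 CPM in sy441 HS, 1050, 758 and 847 CPM in sy441 control, 658, 600 and 601 CPM in N2 HS and 557, 587 and 788 CPM in N2 control. The order then differed, with sy441 control 1 the highest and N2 control 1 the lowest.

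Markers of other tissues also shifted in these libraries, though not always in the same direction. In N2 control 3 the sums of 12 germ line markers (1670 CPM), 12 oocyte and eggshell markers (4800 CPM) and 11 intestine markers (4680 CPM) were low against N2 control 1 and 2 (3530 and 3360, 12300 and 11100, and 15800 and 16500 CPM). In sy441 HS 2 the germ line and oocyte sums were 3110 and 10900 CPM. They were 2480 and 7960 CPM in sy441 HS 1 and 2220 and 7900 CPM in sy441 HS 3. The intestine sums were 31100, 21400 and 19200 CPM in sy441 HS 1, 2 and 3, so highest where most neuropeptide genes were highest. N2 HS 1 was low for the germ line, oocyte and eggshell, and intestine markers, with sums of 2280, 7020 and 8620 CPM, against 3210, 10100 and 14800 CPM in N2 HS 2 and 3310, 11000 and 19500 CPM in N2 HS 3. Of the 20 pan-neuronal markers, some followed the neuropeptide genes in N2 control 3, with *rgef-1* at 2.06-fold, *ric-4* at 2.34-fold, *rab-3* at 1.84-fold and *snt-1* at 1.83-fold over the mean of N2 control 1 and 2. Others did not, with *unc-11* at 0.382-fold, *maco-1* at 0.522-fold and *egl-3* at 0.673-fold. In sy441 HS 2 the 20 markers summed to 797 CPM, the highest of the 12 libraries, with 9 of the 20 above their own mean. In whole animals, fewer neurons, less RNA per neuron and more RNA from other tissues cannot be told apart, and the part of these shifts in the comparisons was not tested beyond the fits without single libraries given below.

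**Figure D2:**
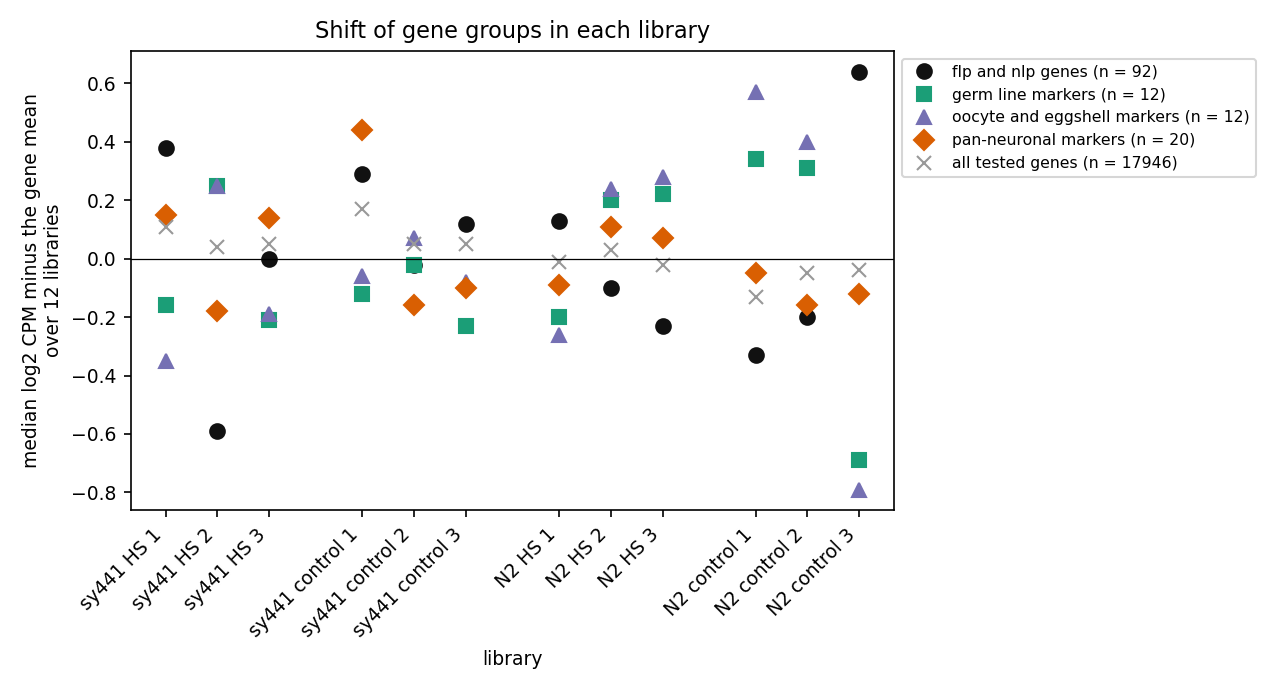
Median over each gene group of log2 CPM minus the gene's mean over the 12 libraries, by library. The neuropeptide genes (circles) are highest in N2 control 3 (0.64), where the germ line (-0.69) and oocyte and eggshell markers (-0.79) are lowest, and lowest in sy441 HS 2 (-0.59).

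**Figure D3:**
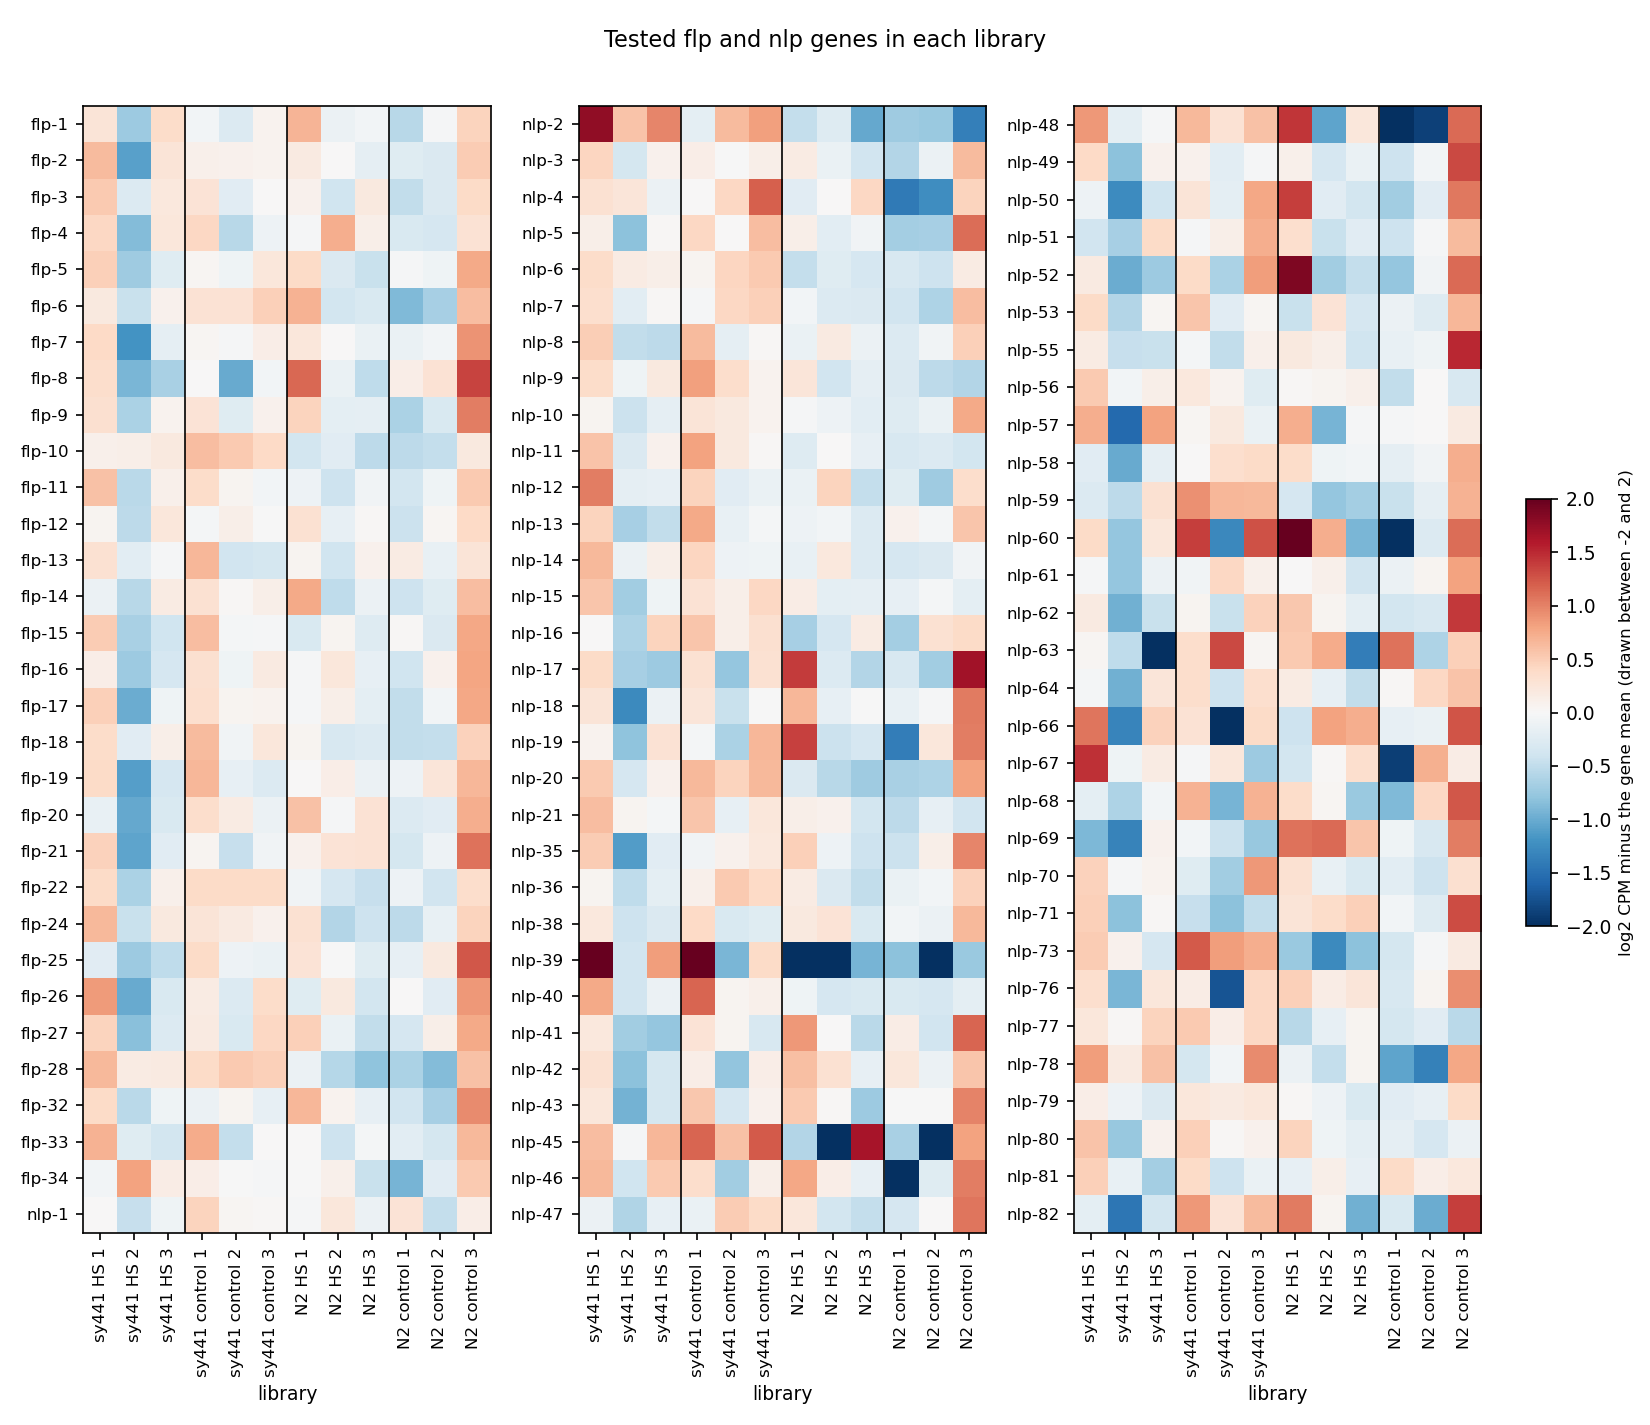
log2 CPM minus the gene's mean over the 12 libraries for each of the 92 tested genes, drawn between -2 and 2 (red above the mean, blue below). The columns of N2 control 3 and sy441 HS 1 are mostly red and that of sy441 HS 2 mostly blue, while rows such as *nlp-2*, *nlp-9* and *nlp-77* do not follow N2 control 3.

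The first comparison asked which neuropeptide genes differed between sy441 and N2 animals at 20 °C. None of the 92 genes passed an adjusted p of 0.05 in edgeR's quasi-likelihood test with Benjamini-Hochberg adjustment over all 17946 genes, a threshold that 6.83% of all genes passed. DESeq2 called 5. At an unadjusted p under 0.05 there were 11 (all genes 24.6%), 10 of them with higher (all genes 18.1%) and 1 with lower values (all genes 6.51%) in sy441 control. The median log2 fold change was 0.04 (all genes 0.13), and 50 of the 92 were positive (all genes 57.8%). The median 95% confidence interval reached 0.826 to either side on the log2 scale. For a typical gene, differences within that distance of its estimate were thus not excluded. These intervals are not adjusted for the number of genes, so passing the test takes a larger difference still.

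The gene nearest the threshold, *nlp-77* (II:7790591-7791375, *srlf-1* in the gene names supplied with the annotation), is also the one with the highest level. It had 310, 238 and 290 CPM in sy441 control, against 169, 184 and 149 CPM in N2 control, and the groups did not overlap. The log2 fold change was 0.74 ± 0.208 (SE; adjusted p = 0.0503 in edgeR). Over the alternatives, which include a scaling by the neuropeptide genes themselves, its adjusted p lay between 0.0216 and 0.664 in edgeR or DESeq2.

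*nlp-73* (V:9678277-9679302) is *cthd-1* in those gene names. It had 15, 11.5 and 10.6 CPM in sy441 control, against 5.06, 6.29 and 7.28 CPM in N2 control. Again the groups did not overlap (log2 fold change 0.99 ± 0.286, adjusted p = 0.0539 in edgeR). *nlp-9* (V:4219642-4222233), one of the peptide genes listed for locomotion, had 11.2, 8.09 and 6.65 CPM in sy441 control, against 5.19, 4.37 and 4.24 CPM in N2 control (0.91 ± 0.278, adjusted p = 0.0646 in edgeR). *nlp-2* (X:2343947-2344766) had 0.904, 1.62 and 1.84 CPM in sy441 control, against 0.621, 0.602 and 0.385 CPM in N2 control (1.44 ± 0.456, adjusted p = 0.073 in edgeR). The sy441 control values of all 3 genes lay above every N2 control value, and N2 control 3 was not above the other N2 control libraries for *nlp-9* and *nlp-2*.

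The egg-laying peptides were examined because the mutants retain eggs. *flp-10* (IV:7868907-7870081), whose peptides inhibit egg laying together with those of *flp-17* through the receptor EGL-6, had 12.8, 12 and 11.1 CPM in sy441 control, against 5.78, 6.02 and 9.58 CPM in N2 control. The groups did not overlap, the highest N2 control value was that of N2 control 3, and the log2 fold change was 0.75 ± 0.243 (adjusted p = 0.0801 in edgeR). Without N2 control 3 it was 1.04 ± 0.239 and passed the test (adjusted p = 0.0241), and over all alternatives its adjusted p lay between 0.0139 and 0.422. *flp-17* had 8.89, 7.38 and 7.4 CPM in sy441 control, against 4.98, 6.81 and 12.1 CPM in N2 control, and the groups overlapped. *nlp-3*, which promotes egg laying and is expressed in the HSN motor neurons, had 6.84, 6.14 and 6.71 CPM in sy441 control, against 4.11, 5.74 and 9.64 CPM in N2 control. *nlp-7* had 6.2, 8.37 and 8.76 CPM in sy441 control, against 4.82, 4.12 and 9.64 CPM in N2 control. For the last 3 genes the N2 control 3 value was the highest of all 6, and 0 of the 4 egg-laying peptide genes passed the test.

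*nlp-40* (I:11495-16837) encodes the intestinal peptide that times defecation. It had 325, 151 and 157 CPM in sy441 control, against 118, 115 and 128 CPM in N2 control (log2 fold change 0.81 ± 0.323, adjusted p = 0.143 in edgeR). The groups did not overlap, and sy441 control 1 stood far above the other libraries. The sum of the 11 intestine markers was 45400, 21100 and 19900 CPM in sy441 control, against 15800, 16500 and 4680 CPM in N2 control, and 5 of these 11 markers passed the test with higher values in sy441 control. The part of the marker shift in the *nlp-40* values was not tested.

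**Figure D4:**
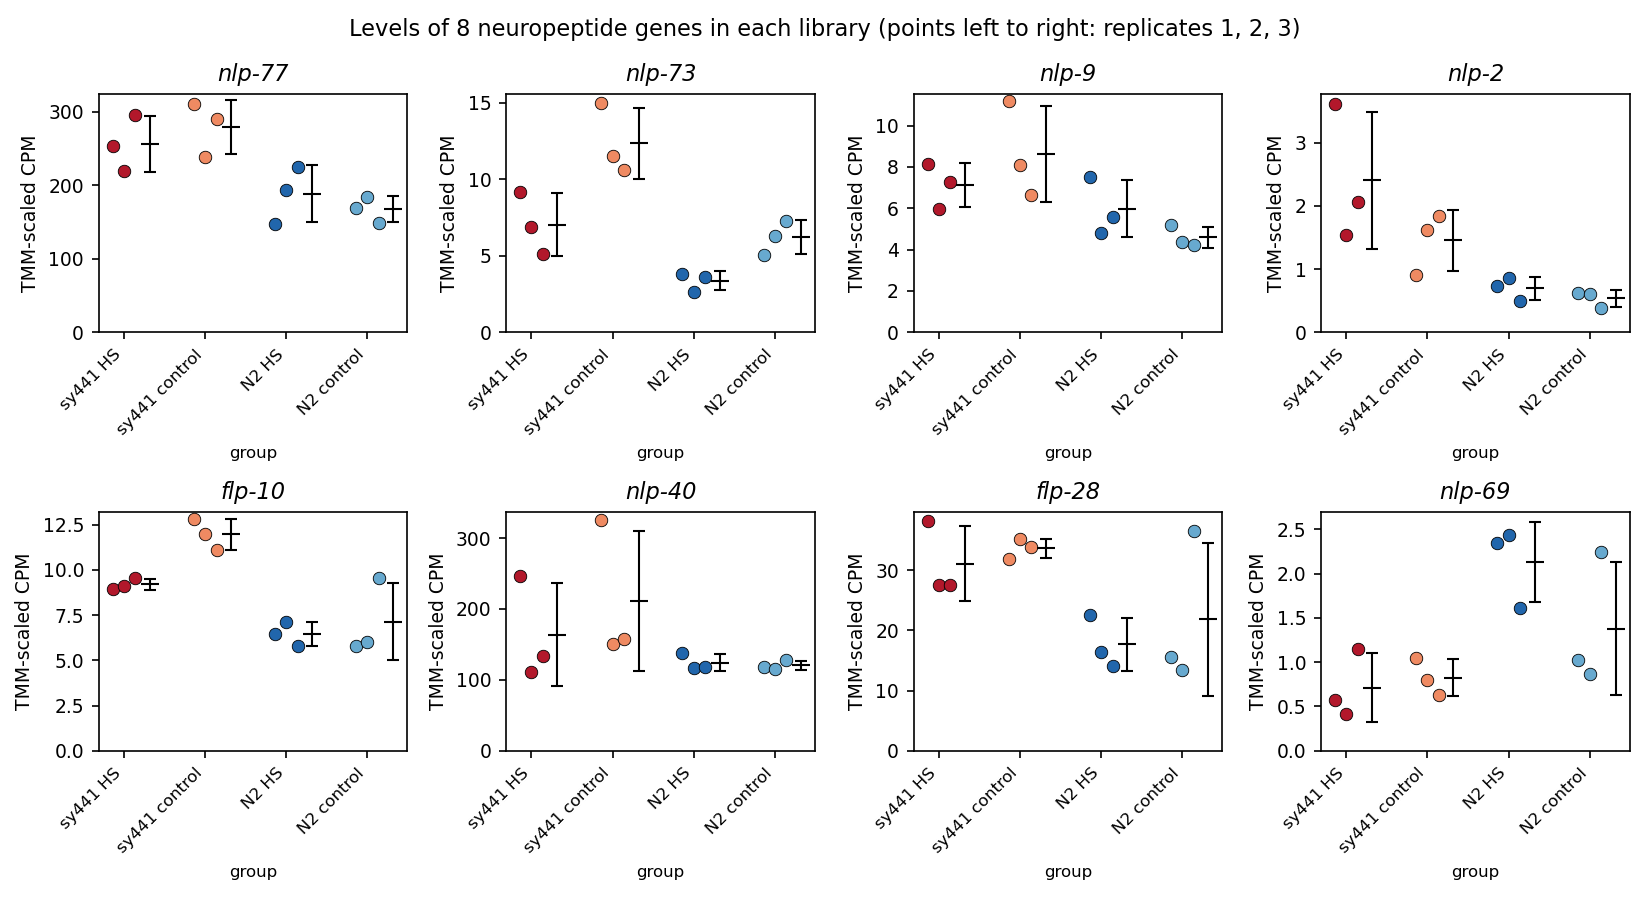
TMM-scaled CPM of 8 neuropeptide genes in each library (points) with the mean and SD of each group (bars, n = 3). The sy441 control points of *nlp-77*, *nlp-73*, *nlp-9*, *nlp-2*, *flp-10* and *nlp-40* lie above all N2 control points, and in *flp-28* the point of N2 control 3 (36.5 CPM) lies above all sy441 control points.

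Of the 7 locomotion peptide genes, *nlp-9* was thus the one at an unadjusted p under 0.05, and 0 passed the test. *flp-1*, from the AVK interneurons, had 13.4, 11.4 and 14.5 CPM in sy441 control, against 9.46, 13.6 and 18.8 CPM in N2 control. *nlp-12*, a cholecystokinin-like gene of the stretch-sensitive DVA neuron, had 10.1, 6.31 and 6.72 CPM in sy441 control, against 6.3, 4.54 and 9.5 CPM in N2 control. *flp-2*, *flp-9* and *flp-20* overlapped between the genotypes in the same way. The ligand genes of the neuropeptide receptor NPR-1, which sets social feeding, were *flp-18* with 19.8, 12.1 and 14.9 CPM in sy441 control, against 9.05, 9.13 and 17.5 CPM in N2 control, and *flp-21* with 3.29, 2.31 and 3.02 CPM in sy441 control, against 2.5, 2.97 and 6.74 CPM in N2 control. Neither passed the test with all libraries.

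The other genes at an unadjusted p under 0.05 were *nlp-11* (log2 fold change 0.71 ± 0.293), *nlp-21* (0.6 ± 0.263), *nlp-6* (0.51 ± 0.237), *nlp-71* and *nlp-39*. They are named after their values were seen. *nlp-71* was the one with lower values in the mutant, 1.33, 1.03 and 1.29 CPM in sy441 control against 1.77, 1.53 and 4.56 CPM in N2 control. Its log2 fold change was -1.11 ± 0.455 with all libraries and -0.42 ± 0.416 without N2 control 3. In all, sy441 control lay wholly above N2 control for 11 of the 92 genes (all genes 20.9%) and wholly below it for 2 (all genes 8.87%), *flp-8* and *nlp-71*.

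*nlp-39* was read almost only in a pair of mutant libraries. It had 330 counts in sy441 HS 1, 6 in sy441 HS 2 and 18 in sy441 HS 3, and 318 counts in sy441 control 1, 4 in sy441 control 2 and 13 in sy441 control 3. In the wild type it had 0, 0 and 5 counts in N2 HS and 4, 0 and 5 counts in N2 control. Both libraries with high counts are replicate 1 of the mutant, so no fold is given. These libraries also had the highest sums of the intestine markers and of the pharyngeal muscle markers (183 CPM in sy441 HS 1 and 217 CPM in sy441 control 1). The part of such shifts in the *nlp-39* counts was not tested.

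Without N2 control 3 the comparison at 20 °C was another one. The median log2 fold change of the 92 genes became 0.44 (all genes 0.31), 85 of the 92 were positive (all genes 61%), and sy441 control lay wholly above the remaining N2 control libraries for 43 genes (all genes 33.5%). Leaving out a library can only add genes to such a count. Leaving out N2 control 1 or N2 control 2 instead gave a median of -0.3 each, and leaving out sy441 control 1, 2 or 3 gave -0.21, 0.15 and -0.17. The sign of the typical neuropeptide gene at 20 °C therefore rested on which libraries were used.

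Without N2 control 3, 4 genes passed the test, *flp-10*, *flp-28*, *nlp-20* and *nlp-48*, the last 3 named after their values were seen. How many of all genes passed in that fit is not given here, so no share stands beside this count. *flp-28* (X:10087314-10087966) had 31.9, 35.1 and 33.9 CPM in sy441 control, against 15.6, 13.4 and 36.5 CPM in N2 control. Its log2 fold change was 0.62 ± 0.334 with all libraries (adjusted p = 0.274 in edgeR) and 1.23 ± 0.252 without N2 control 3 (adjusted p = 0.0155). *nlp-20* (IV:7642054-7643071) had 41.8, 36.5 and 42 CPM in sy441 control, against 17, 17.4 and 46.7 CPM in N2 control, with log2 fold changes of 0.57 ± 0.352 and, without N2 control 3, 1.24 ± 0.257 (adjusted p = 0.0162). *nlp-48* had 1.33, 1.03 and 1.26 CPM in sy441 control, against 0.185, 0.21 and 1.87 CPM in N2 control, and 2.62 ± 0.737 without N2 control 3 (adjusted p = 0.0478). In each of these 3 genes N2 control 3 was the highest of the 6 libraries. Over all alternatives the adjusted p lay between 0.0015 and 0.829 for *flp-28*, between 0.00182 and 0.884 for *nlp-20* and between 0.0133 and 0.993 for *nlp-48*.

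**Figure D5:**
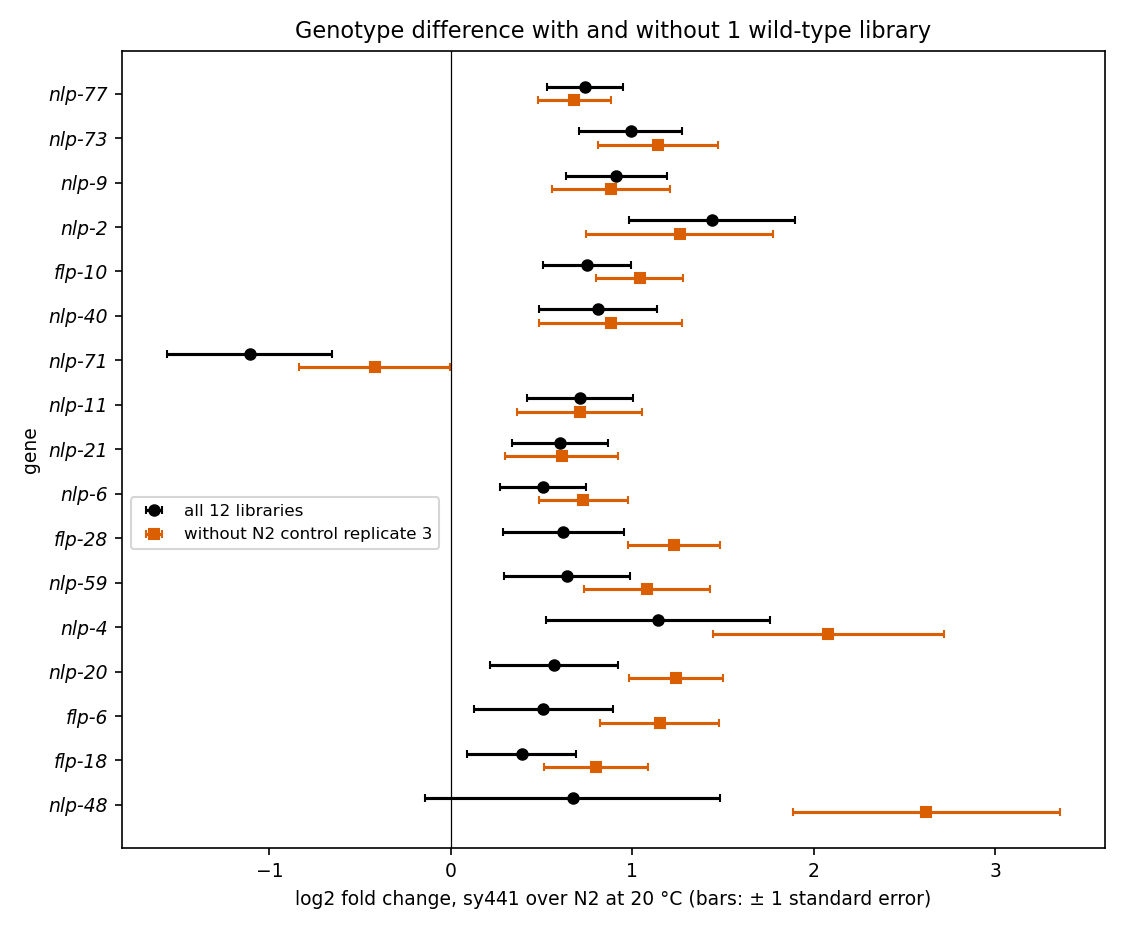
log2 fold change of sy441 over N2 at 20 °C (± 1 SE) for the genes at an unadjusted p under 0.05 or called in an alternative fit, *nlp-39* left out, with all 12 libraries (circles) and without N2 control 3 (squares). *nlp-77*, *nlp-9*, *nlp-40*, *nlp-11* and *nlp-21* moved by less than 0.1, while *flp-28*, *nlp-20*, *flp-6*, *nlp-4*, *nlp-48* and *nlp-71* moved up by more than 0.6.

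After heat shock, sy441 was again compared with N2. None of the 92 genes passed the test (all genes 2.7%), and 7 were at an unadjusted p under 0.05 (all genes 18.8%). DESeq2 called 3, again a smaller share than of all genes, of which it also called more than edgeR did. The median log2 fold change was -0.03 (all genes 0.04), and 42 were positive (all genes 53.3%). sy441 HS lay wholly above N2 HS for 7 genes (all genes 18%) and wholly below it for 3 (all genes 11.1%).

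These values also moved with single libraries. Without sy441 HS 1 the median was -0.38 (all genes -0.08), 16 genes were positive (all genes 43.6%), and sy441 HS lay wholly below N2 HS for 20 genes (2898 of all 17946 genes) and wholly above it for 8 (all genes 22.2%). Without sy441 HS 2 the median was 0.01 (all genes -0.09), 47 genes were positive (all genes 45.6%), and the counts were 3 wholly below (all genes 14.6%) and 18 wholly above (all genes 24.7%). Without N2 HS 1 the median was -0.01 (all genes -0.04), with 13 genes wholly above (all genes 24.4%), and without N2 HS 3 it was -0.24 (all genes -0.03), with 9 wholly below (2887 of all 17946 genes).

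*nlp-2* and *nlp-73* were again nearest the threshold. *nlp-2* had 3.62, 1.54 and 2.06 CPM in sy441 HS, against 0.734, 0.861 and 0.493 CPM in N2 HS (log2 fold change 1.79 ± 0.457, adjusted p = 0.0573 in edgeR). *nlp-73* had 9.17, 6.87 and 5.1 CPM in sy441 HS, against 3.81, 2.65 and 3.64 CPM in N2 HS (1.06 ± 0.287, adjusted p = 0.0717 in edgeR). For both genes the heat-shocked groups did not overlap, as the untreated groups did not.

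*nlp-69*, named after its values were seen, ran the other way, with 0.57, 0.415 and 1.15 CPM in sy441 HS, against 2.35, 2.43 and 1.61 CPM in N2 HS (log2 fold change -1.58 ± 0.498, adjusted p = 0.112 in edgeR). *flp-28* had 38.2, 27.5 and 27.6 CPM in sy441 HS, against 14 to 22.6 CPM in N2 HS (0.81 ± 0.335, adjusted p = 0.214). *flp-10* had 8.97, 9.12 and 9.53 CPM in sy441 HS, against 6.46, 7.15 and 5.78 CPM in N2 HS (0.51 ± 0.242, adjusted p = 0.276). *nlp-77* had 254, 220 and 296 CPM in sy441 HS, against 148, 193 and 225 CPM in N2 HS, where the groups overlapped (0.45 ± 0.207, adjusted p = 0.265). For *nlp-2*, *nlp-73* and *flp-10* the mutant values lay wholly above the wild type in the heat-shocked and the untreated comparison. Of all genes, 18% and 20.9% did so in each, and the share in both was not computed. The comparisons share no library, but same-numbered sy441 HS and sy441 control libraries deviated together (correlations 0.2 to 0.34).

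In N2, heat shock was compared with control. None of the 92 genes passed the test (all genes 1%), DESeq2 also called 0, and 1 was at an unadjusted p under 0.05 (all genes 7.88%). The median log2 fold change was -0.15 (all genes 0.05), with 34 of the 92 positive (all genes 55.4%). Without N2 control 3 the median became 0.2 (all genes 0.1) with 78 positive (all genes 57.4%), so here too the sign rested on 1 library. N2 HS lay wholly above N2 control for 2 genes (all genes 8.19%), *nlp-11* and *nlp-56*, and wholly below it for 3 (all genes 5.84%), *nlp-13*, *nlp-73* and *nlp-81*.

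The gene at an unadjusted p under 0.05 was *nlp-73*, with 3.81, 2.65 and 3.64 CPM in N2 HS, against 5.06, 6.29 and 7.28 CPM in N2 control (log2 fold change -0.88 ± 0.286, adjusted p = 0.276 in edgeR). *nlp-59* followed, with 2.78, 2.04 and 2.19 CPM in N2 HS, against 2.59, 3.11 and 5.67 CPM in N2 control (-0.7 ± 0.347, adjusted p = 0.699). *nlp-55*, the next, had 7.16, 6.78 and 4.74 CPM in N2 HS, against 5.64, 5.9 and 17.8 CPM in N2 control (-0.65 ± 0.415, adjusted p = 0.882). Its 17.8 CPM in N2 control 3 carried the difference, and without that library the log2 fold change was 0.13.

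In sy441, heat shock was compared with control in the same way. None of the 92 genes passed the test (all genes 0.568%), DESeq2 also called 0, and 3 were at an unadjusted p under 0.05 (all genes 6.82%). The median log2 fold change was -0.22 (all genes 0), and 24 of the 92 were positive (all genes 49.5%). sy441 HS lay wholly below sy441 control for 14 genes (all genes 6.68%) and wholly above it for 0 (all genes 5.37%). The 14 were *flp-6*, *flp-10*, *flp-20*, *flp-22*, *flp-25*, *nlp-1*, *nlp-10*, *nlp-36*, *nlp-58*, *nlp-59*, *nlp-63*, *nlp-73*, *nlp-79* and *nlp-82*.

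Without sy441 HS 2 the median was -0.03 (all genes -0.04) and 43 genes were positive (all genes 44.7%), with 14 genes wholly below sy441 control (all genes 10.8%) and 7 wholly above it (all genes 10.2%). Without sy441 HS 1 the median was -0.41 (all genes 0.01) and 10 genes were positive (all genes 51.2%), with 36 genes wholly below sy441 control (all genes 12.8%) and 1 wholly above it (all genes 9.86%).

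*nlp-73* had 9.17, 6.87 and 5.1 CPM in sy441 HS, against 15, 11.5 and 10.6 CPM in sy441 control (log2 fold change -0.81 ± 0.285, adjusted p = 0.397 in edgeR). *nlp-59* had 2.9, 2.42 and 4.33 CPM in sy441 HS, against 6.64, 5.59 and 5.53 CPM in sy441 control (-0.88 ± 0.347, adjusted p = 0.54). *nlp-36* had 70.3, 47.3 and 58.6 CPM in sy441 HS, against 72.5, 96.8 and 89 CPM in sy441 control (-0.55 ± 0.237, adjusted p = 0.642). The groups did not overlap for any of these 3 genes. In N2 the heat-shocked values of *nlp-36*, at 75.6, 55.3 and 48 CPM, overlapped with the 61.6, 64.9 and 92.7 CPM of N2 control.

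The sleep peptide genes are of interest because heat shock puts nematodes into a sleep-like state that depends on the ALA neuron. *flp-13*, whose peptides the ALA neuron releases, had 6.06, 4.24 and 4.83 CPM in sy441 HS, against 7.74, 3.73 and 3.84 CPM in sy441 control, and 5.11, 3.7 and 5.23 CPM in N2 HS, against 5.47, 4.43 and 5.82 CPM in N2 control. *flp-24*, also of the ALA neuron, had 30.8, 14.5 and 22.5 CPM in sy441 HS, against 23.5, 22.3 and 20.9 CPM in sy441 control, and 24.3, 13 and 14.6 CPM in N2 HS, against 13.6, 17.7 and 26.9 CPM in N2 control. The third ALA gene, *nlp-8*, had 7.61, 3.84 and 3.74 CPM in sy441 HS, against 8.36, 4.78 and 5.51 CPM in sy441 control, and 4.9, 6.14 and 4.97 CPM in N2 HS, against 4.46, 5.17 and 7.55 CPM in N2 control.

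Heat-shocked and untreated values of all 3 ALA genes overlapped in both genotypes. *flp-11*, the main sleep peptide gene of the RIS neuron, had 15.7, 7.21 and 11.3 CPM in sy441 HS, against 13.5, 10.9 and 10.1 CPM in sy441 control, and 9.78, 7.84 and 9.99 CPM in N2 HS, against 8.19, 9.83 and 15.1 CPM in N2 control. *nlp-14* had 12.8, 7.51 and 8.82 CPM in sy441 HS, against 10.9, 7.57 and 7.63 CPM in sy441 control, and 7.3, 9.38 and 6.66 CPM in N2 HS, against 6.46, 6.64 and 7.74 CPM in N2 control. None of the 5 tested sleep peptide genes passed the test or reached an unadjusted p under 0.05 in either genotype. Their log2 fold changes lay between -0.3 and 0.15 in sy441 and between -0.26 and 0.16 in N2. The interval for *flp-13* reached from -0.72 to 0.68 in sy441 and from -0.86 to 0.54 in N2, so changes within those bounds were not excluded.

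The interaction of genotype and heat shock asked whether any gene responded differently in the mutant. None of the 92 genes passed the test (all genes 0.0111%), DESeq2 called 0, and 0 were at an unadjusted p under 0.05 (all genes 2.54%). The interaction term was positive for 37 genes (all genes 44%), with a median of -0.04 (all genes -0.05). The smallest p-values belonged to *nlp-9* (difference of log2 fold changes -0.66 ± 0.39), *flp-20* (-0.74 ± 0.505) and *nlp-50* (-1.11 ± 0.767), each with an adjusted p of 1 in edgeR. *nlp-9* had a log2 fold change after heat shock of -0.28 ± 0.275 in sy441 and 0.38 ± 0.276 in N2. The median interval of the interaction reached 1.17 to either side on the log2 scale.

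The genes that make, release and sense the peptides passed the test in few cases. None of 14 genes for precursor processing passed the test in any of the 5 comparisons. The one nearest the threshold was *aex-5*, a proprotein convertase gene, with 19.2, 12.1 and 11.1 CPM in sy441 control, against 8.36, 8.94 and 5.6 CPM in N2 control (log2 fold change 0.89 ± 0.275, adjusted p = 0.0686 in edgeR). None of 18 genes for dense-core vesicle release passed, *rund-1* being nearest at 20 °C with 6.32, 4.35 and 4.62 CPM in sy441 control, against 2.77, 2.97 and 1.34 CPM in N2 control (1.11 ± 0.341, adjusted p = 0.0665). None of 7 other neuropeptide genes outside the *flp* and *nlp* names, such as *pdf-1*, passed in any comparison.

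Of 103 neuropeptide receptor genes listed, 94 were found and 90 tested, and 2 had higher levels in sy441 control than in N2 control, where 6.83% of all genes passed the test. *pdfr-1*, the receptor of the PDF peptides, which control roaming and locomotion, had 43.3, 29.7 and 22.9 CPM in sy441 control, against 12.2, 10.6 and 9.8 CPM in N2 control (log2 fold change 1.56 ± 0.27, adjusted p = 0.00629 in edgeR). It was also the 1 of 90 receptor genes called after heat shock (all genes 2.7%), with 37.6, 24 and 25.2 CPM in sy441 HS, against 7.87, 9.58 and 10.9 CPM in N2 HS (1.61 ± 0.271, adjusted p = 0.0081). At 20 °C it passed in 15 of 17 alternatives, with log2 fold changes of 1.09 to 1.62. The adjusted p-values there reached up to 0.116 in edgeR or DESeq2, and without sy441 control 1 the adjusted p was 0.0638. After heat shock it also passed in 15 of 17, with log2 fold changes of 1.26 to 1.72. The highest adjusted p there was 0.0575, without N2 HS 1. *frpr-13* had 5.85, 4.27 and 3.14 CPM in sy441 control, against 1.6, 1.32 and 2.6 CPM in N2 control (1.26 ± 0.34, adjusted p = 0.0428). It passed in 6 of 17 alternatives, with log2 fold changes of 0.83 to 1.62 and adjusted p-values of 0.00796 to 0.258 in edgeR or DESeq2. Of the fits without 1 library it passed in that without N2 control 3 (adjusted p = 0.0212) and in none of the other 5 (0.0782 to 0.241), and with the replicate number as a block it had an adjusted p of 0.0544. *pdfr-1* is expressed in body wall muscle as well as in neurons, and 4 of 9 body wall muscle markers also passed with higher values in sy441 control at 20 °C, a shift whose part in the *pdfr-1* values was not tested.

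In the heat shock comparisons no receptor gene passed the test with all 12 libraries. *frpr-5* was nearest, with 1.23, 1.11 and 0.758 CPM in sy441 HS, against 4.62, 2.72 and 3.36 CPM in sy441 control (log2 fold change -1.79 ± 0.395, adjusted p = 0.0744 in edgeR). The replicate number was also used as a block in the mutant libraries alone, although no label states a pairing. *frpr-5* then had a log2 fold change of -1.76 and passed (adjusted p = 0.0144 in edgeR). It passed in 5 of 18 alternatives, DESeq2 (adjusted p = 0.00106) among them, with log2 fold changes of -1.99 to -1.49 and adjusted p-values of up to 0.355. In N2 it had 0.722, 0.743 and 1.39 CPM in N2 HS, against 2.13, 1.81 and 2.84 CPM in N2 control (-1.24 ± 0.389, adjusted p = 0.242). The heat-shocked values lay below the untreated ones in both genotypes.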

How the data were processed

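Polyadenylated RNA of 12 libraries was sequenced, and the deposited values are whole-number read counts per gene, made by the authors with HISAT2 and HTSeq on WBcel235 per the labels. Versions, strand setting and treatment of multiply mapped reads are not given in the sources used here. Positions and exon lengths come from an Ensembl annotation of WBcel235. In the gene names supplied with it, 5 of the 95 genes have another symbol. They are *nlp-10* (*npl-10*), *nlp-38* (*mihp-1*), *nlp-42* (*mihp-2*), *nlp-73* (*cthd-1*) and *nlp-77* (*srlf-1*).

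Counts were filtered by edgeR's filterByExpr and scaled by the trimmed mean of M-values, and all 4 groups were fitted with edgeR 4.0.16 (R 4.3.3, glmQLFit with robust and legacy settings). Comparisons were called at an adjusted p under 0.05 over all tested genes. Intervals are 95% intervals, and SE is the log2 fold change divided by the square root of F. DESeq2 1.42.0, other scaling, filter and model settings, the replicate number as a block and fits without each library were the alternatives. Alternatives not planned in advance were the newer quasi-likelihood form of edgeR, the block in the mutant libraries alone and fits without several libraries at once. A scaling by the tested neuropeptide genes was also not planned, and by construction it takes out a shift that these genes share. The ranges and sign changes over the alternatives include these fits. The code was tested on simulated counts.

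The text names, per comparison, every called gene or, with under 3 called, the 3 with the smallest p, the genes of 5 role lists and the 5 highest levels per length. Others are marked as chosen after their values were seen. The genes and lists were chosen with earlier results of these data known. Same-numbered sy441 HS and sy441 control libraries deviated together (correlations 0.2 to 0.34), but no label states that the numbers pair the samples. In other group pairs the same-number correlations ran from -0.36 to 0.25. The largest correlation, 0.54, was between N2 control 3 and N2 HS 1, which differ in number.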

Additional observations from a re-analysis of the deposited data

How the results depend on the processing

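The count of neuropeptide genes called was 0 in all 5 comparisons, and 81 of 91 alternative counts were also 0. For sy441 against N2 at 20 °C, DESeq2 called 5 (*flp-10*, *nlp-2*, *nlp-9*, *nlp-73* and *nlp-77*) and the newer quasi-likelihood form of edgeR 2 (*nlp-73* and *nlp-77*). Leaving out 1 library gave 0 to 4, with 4 without N2 control 3 and 1 (*nlp-77*) without sy441 control 2. After heat shock DESeq2 called 3 (*nlp-2*, *nlp-69* and *nlp-73*) and the newer form 1 (*nlp-2*). Added after seeing the data, leaving out both N2 control 3 and N2 HS 1 gave 7 at 20 °C and 1 after heat shock, and leaving out sy441 HS 1 as well gave 10 and 1. The counts of all genes called in these fits, DESeq2 apart, are not given here, and the cause was not tested.

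Of the fold changes given, that of *nlp-55* in N2 ran from -0.98 to 0.13 when 1 library was left out, with 0.13 without N2 control 3. Of 22 role and high-level genes, 16 changed sign under at least 1 alternative at 20 °C, 13 after heat shock, 18 with heat shock in N2 and 15 with heat shock in sy441, which is why most are given by library. Over all 17946 genes, DESeq2 called 2580, 1517, 513, 410 and 30 in the 5 comparisons, against 1226, 485, 180, 102 and 2 in edgeR.

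With the replicate number as a block, 0 neuropeptide genes were called in every comparison, and medians were 0.03, -0.07, -0.12, -0.25 and -0.08. In the mutant libraries alone, the block also gave 0, with a median of -0.25. There 619 of all genes were called.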
